A study of Mus musculus with 6 samples.

Results

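Complement is the plasma and cell-surface cascade that marks microbes and damaged cells for removal, and the transcripts of 8 of its genes are described here in liver CD31-positive cells cultured from mice of either sex. The genes were chosen by name, as components (C3, C4b, C1ra, Cfb) and regulators (Serping1, Cd55, Cd59a, Cd46) of the cascade, with earlier results of these data known. Of them, 7 were read among the 13595 genes of the deposited table. The expression of Cd46 was not analysed here. Poly(A) RNA was sequenced in 6 libraries, of which 3 are labelled male and 3 female, numbered 4, 5 and 6 in either sex. The cells were from C57BL6/J mice aged 4 weeks and were selected for CD31, a surface protein of endothelial cells, which does not exclude other cells. Before RNA extraction, cultures of either sex had received 100 µM indoxyl sulfate, a tryptophan metabolite that activates the aryl hydrocarbon receptor, together with 6 hours of hypoxia and nutrient deprivation. Sex is therefore the 1 contrast, and no value bears on what indoxyl sulfate or hypoxia did. The labels do not say whether replicates are mice, isolations or wells, so the errors and p-values measure the spread between these libraries, which may be technical.

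Complement can be started along 3 routes that meet at C3. In the classical route the proteases C1r and C1s cleave C4 and C2, and in the alternative route factor B supplies the protease that cleaves C3 and amplifies the cascade. C1 inhibitor, the product of Serping1, blocks C1r and C1s in plasma, while CD55 speeds the decay of the C3-cleaving enzymes and CD59 stops assembly of the membrane attack complex on the cell's own surface. The liver, mainly its hepatocytes, makes most complement protein of plasma, and endothelial cells and fibroblasts make some locally and carry membrane regulators. In mice CD46 is known mainly from the testis, and Crry, encoded by Cr1l, is the widespread membrane regulator.

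The RefSeq promoter table (GRCm38.p6) held no entry under the symbols Cfb, C4b and Serping1, the members with the largest decreases. Promoters are shown for the other 4 members read. Of these, C3 and C1ra had far lower transcripts in the libraries labelled female, and Cd55 and Cd59a differed little. Each promoter runs 5′ to 3′ from 250 bases before to 50 after the annotated start. The windows are chr17:57228087-57228386 on the minus strand for C3, chr6:124512371-124512670 on the plus strand for C1ra, chr1:130462695-130462994 on the minus strand for Cd55 and chr2:104095551-104095850 on the plus strand for Cd59a. Capitals mark matches to the motifs named after the sequences.
C3 promoter: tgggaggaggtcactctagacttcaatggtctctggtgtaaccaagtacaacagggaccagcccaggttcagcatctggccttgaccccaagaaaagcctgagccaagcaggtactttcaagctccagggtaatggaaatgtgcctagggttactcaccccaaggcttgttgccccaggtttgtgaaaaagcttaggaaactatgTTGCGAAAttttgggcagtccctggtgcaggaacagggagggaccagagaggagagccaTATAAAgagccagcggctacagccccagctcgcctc
C1ra promoter: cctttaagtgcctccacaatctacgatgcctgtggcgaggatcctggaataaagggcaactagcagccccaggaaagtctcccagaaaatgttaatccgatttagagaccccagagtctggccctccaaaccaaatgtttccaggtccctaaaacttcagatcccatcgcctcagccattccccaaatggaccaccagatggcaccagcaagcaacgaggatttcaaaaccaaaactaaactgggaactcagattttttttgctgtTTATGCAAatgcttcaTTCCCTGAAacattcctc
Cd55 promoter: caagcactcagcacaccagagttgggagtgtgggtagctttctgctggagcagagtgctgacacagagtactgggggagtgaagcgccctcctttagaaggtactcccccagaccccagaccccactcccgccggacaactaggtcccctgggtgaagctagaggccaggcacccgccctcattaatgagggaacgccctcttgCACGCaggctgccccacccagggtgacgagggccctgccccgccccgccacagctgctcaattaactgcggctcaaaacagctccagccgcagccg
Cd59a promoter: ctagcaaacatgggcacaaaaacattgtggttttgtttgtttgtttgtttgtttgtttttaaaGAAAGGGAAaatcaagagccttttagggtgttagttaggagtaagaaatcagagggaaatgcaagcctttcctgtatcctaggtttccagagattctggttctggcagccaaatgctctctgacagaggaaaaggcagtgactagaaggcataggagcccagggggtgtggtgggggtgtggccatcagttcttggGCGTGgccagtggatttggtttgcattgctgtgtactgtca
The motifs, searched on both strands, were an interferon-stimulated response element core (GAAANNGAA), a STAT site (TTCNNNGAA), the NF-kB consensus, a C/EBP site (TTGCNNAA), the aryl hydrocarbon receptor core (GCGTG), the HIF core (ACGTG) and a TATA box (TATAAA). The C/EBP and TATA motifs, and the length of the interferon-element core, were set after the sequences had been seen. The C3 window held a C/EBP match at -45 to -38 and a TATA match at 15 to 20, counted from the start. The C1ra window held a C/EBP match at 17 to 24 and a STAT match at 33 to 41. Cd59a held the interferon-element core at -187 to -179 and a receptor core at 10 to 14, and Cd55 held a receptor core at -46 to -42. Neither the NF-kB nor the HIF motif was found in these 4 windows. Of 32851 promoters of the same length, 10.8% held the C/EBP motif, 13.6% the TATA motif, 8.30% the STAT motif, 8.56% the interferon-element core, 32.4% the receptor core, 19.6% the HIF core and 8.46% the NF-kB motif. A match describes letters and is not evidence of binding.

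Library depth over the listed genes ranged from 22303270 to 31189363 reads, and 1 read was worth 0.0353 to 0.0475 normalized read counts. The labels were checked with sex-linked genes. Xist, the RNA of the inactive X, followed the labels (234 to 324 in the libraries labelled female, 0.124 to 0.458 in those labelled male), whereas the Y-linked genes Ddx3y, Uty, Eif2s3y and Kdm5d were read in all 6 libraries, at 23.7 to 76.3 in those labelled male and 17.6 to 57.7 in those labelled female. Ddx3y (at 91.5% of the mean in the libraries labelled male) and Uty (89.6%) overlapped between the groups and were not called, and Eif2s3y (51.3%) and Kdm5d (54.8%) were called lower by limma. Y-linked transcripts go against the female label, every direction here rests on that label, and no comparison without these libraries can be made. Male 4 stood apart from male 5 and male 6: the chi-square statistic per gene was 44.35 and 46.1 for its pairs and 6.06 for the other pair. Two-sided limma on log2(normalized read count + 1) called 69.3% of 12568 tested genes at an adjusted p under 0.05, with 34.6% lower and 34.6% higher in the libraries labelled female, and the groups did not overlap for 74.1%. These shares are the background for each count below.

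Of the 7 members read, all 7 passed the filter of a normalized read count of at least 1 in at least 3 libraries, C4b through the libraries labelled male alone. Transcripts of 5 of them, Cfb, C4b, Serping1, C1ra and C3, were at 1.71% to 15.3% of their male level in the libraries labelled female. Cd55 was at 78.0% and was called with overlapping groups, and Cd59a was at 95.5% and was not called. Called lower were thus 6 of 7 members, beside 34.6% of all genes tested, and called higher were 0. Lower by at least 1 on the log2 scale were 5 of 7, beside 12.1% of all genes tested. The groups did not overlap for 6 of 7 members, beside 74.1% of all genes tested. The median log2 fold change of the members was -2.91, and that of all tested genes was 0.01. The members were chosen with earlier results of these data known, and C4b could only be lower, so these counts are a description. In bulk RNA, fewer cells of a type and less RNA per cell cannot be told apart.

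**Figure D1:**
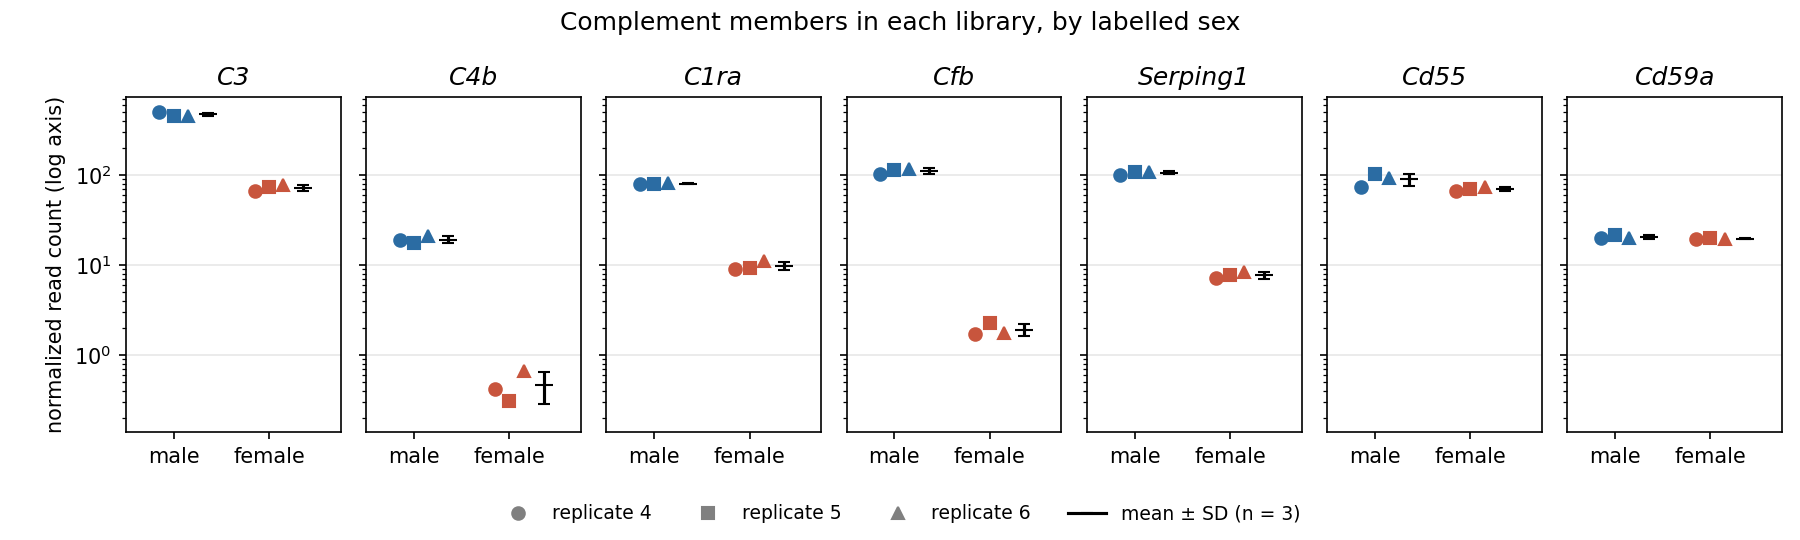
Normalized read count of each member (log axis) in the 3 libraries labelled male (blue) and the 3 labelled female (red), with mean ± SD (n = 3) in black. C3, C4b, C1ra, Cfb and Serping1 are separated by a wide gap, Cd55 overlaps, and Cd59a lies near 20.6 and 19.7.

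Among the classical components, C1ra encodes C1r, the protease that activates C1s. Its normalized read count was 79.8, 79.2 and 81.0 in male 4, 5 and 6, and 9.13, 9.24 and 11.0 in female 4, 5 and 6. The libraries labelled male lay within a coefficient of variation of 1.17%, and each exceeded every library labelled female. Means of 80.0 ± 0.937 and 9.80 ± 1.06 (SD, n = 3) gave a log2 fold change, female minus male, of -2.91 (limma, SE 0.09, adjusted p 6.72e-08). Of its 50-base words, 50.8% also occur in transcripts of other genes (GENCODE M21), 48.0% in its tandem copy C1rb, so reads of the pair may have been divided or merged.

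C4b encodes C4, whose cleaved form anchors the classical and lectin C3-cleaving enzyme. It was read at 18.7, 17.7 and 20.9 in male 4, 5 and 6 (452, 464 and 593 reads). In female 4, 5 and 6 it stood at 0.415, 0.309 and 0.665, from 10, 7 and 14 reads. Exact 95% Poisson intervals for these counts, which cover counting error only, run from 4.80 to 18.4, from 2.81 to 14.4 and from 7.65 to 23.5 reads, so the order among the libraries labelled female is within counting error. The means of 19.1 ± 1.66 and 0.463 ± 0.183 (SD, n = 3) are 41.3-fold apart. The log2 fold change on the log2(value + 1) scale was -3.79 (limma, SE 0.13, adjusted p 1.14e-07), which understates that gap because the lower values are under 1. On recovered reads, edgeR gave -5.38 (quasi-likelihood adjusted p 2.19e-07). C4b shares 34.6% of its 50-base words with C4a.

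C3, the protein on which all routes converge, was the most abundant member per length in the libraries labelled male. It was read at 499.8, 461 and 461 in male 4, 5 and 6 and at 66.0, 73.7 and 77.6 in female 4, 5 and 6. No library labelled female came near the male range. The means were 474 ± 22.5 and 72.4 ± 5.91 (SD, n = 3), and the log2 fold change was -2.70 (limma, SE 0.07, adjusted p 4.62e-08). No 50-base word of C3 occurs in another gene.

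Cfb encodes factor B, the protease subunit of the alternative route. It showed the largest fold difference of the 7 members, with values of 103, 113 and 119 in male 4, 5 and 6 and 1.70, 2.25 and 1.76 in female 4, 5 and 6. The lowest library labelled male was far above the highest labelled female, which held 51 reads. The means of 111 ± 7.94 and 1.90 ± 0.304 (SD, n = 3) are 58.5-fold apart, and the log2 fold change was -5.28 (limma, SE 0.10, adjusted p 1.05e-08). Ordered from the largest decrease on the log2(value + 1) scale, Cfb stood at position 14 of 12568 tested genes, C4b at 70, Serping1 at 82, C1ra at 173 and C3 at 236. Such places depend on the pseudocount: with 0.1 they were 30, 49, 152, 305 and 393 in the same order of genes. Of its 50-base words, 73.0% also occur in Gm20547, an annotated transcript that also contains 38.7% of those of the neighbouring gene C2, so Cfb reads may have been divided between gene models.

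Serping1 encodes C1 inhibitor, which also restrains the contact system of coagulation. Its values were 101, 109 and 108 in male 4, 5 and 6 and 7.10, 7.65 and 8.41 in female 4, 5 and 6. The groups were apart and narrow, with coefficients of variation of 3.75% and 8.52%. Means were 106 ± 3.97 and 7.72 ± 0.657 (SD, n = 3), and its log2 fold change was -3.62 (limma, SE 0.08, adjusted p 2.04e-08). The inhibitor's transcript was thus lower together with those of its target C1ra (log2 fold change -2.91) and of C1s1 (-2.36), which encodes C1s. Serping1 shares no 50-base word with another gene.

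The membrane regulators differed far less. Cd55, encoding decay-accelerating factor, was read at 74.2, 102 and 93.4 in male 4, 5 and 6 and at 66.0, 70.2 and 74.4 in female 4, 5 and 6. Male 4 lay just under female 6, so the groups overlapped. The means were 90.0 ± 14.4 and 70.2 ± 4.21 (SD, n = 3), and the log2 fold change was -0.34 (95% interval -0.61 to -0.08, limma adjusted p 0.0258). Under quantile normalization the limma log2 fold change was -0.30 and the call was lost (adjusted p 0.065). It was also lost with 1 library fewer, at -0.24 without male 5 (limma adjusted p 0.0817), -0.31 without male 6 (0.0747), -0.30 without female 4 (0.093) and -0.34 without female 5 (0.0686). The call was kept without male 4 (-0.47, limma adjusted p 0.00011) and without female 6 (-0.39, limma adjusted p 0.0403). The direction was lower in each of the alternatives run. Cd55os, a gene annotated as overlapping Cd55, can add reads to it if counting ignored strand, which is not given in the sources used here.

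Cd59a encodes an inhibitor of the membrane attack complex. Its values were 20.0, 21.7 and 20.1 in male 4, 5 and 6 and 19.4, 19.8 and 19.7 in female 4, 5 and 6. The groups did not overlap, but the gap was small against the spread of the libraries labelled male. Means of 20.6 ± 0.954 and 19.7 ± 0.217 (SD, n = 3) gave a log2 fold change of -0.06 (95% interval -0.24 to 0.11, limma adjusted p 0.486), and quantile normalization moved its estimate to 0.0002. The interval leaves room for a decrease of 0.24 and an increase of 0.11 on the log2 scale. Cd55 shares 8.0% of its 50-base words with Cd55b and Cd59a shares 3.86% with Cd59b.

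Per kilobase of each gene's longest coding transcript, the order of levels differed between the groups. In the libraries labelled male the mean normalized read count per kilobase was 92.3 for C3, 59.9 for Serping1, 40.5 for Cfb, 35.5 for Cd55, 26.8 for C1ra, 11.4 for Cd59a and 3.56 for C4b. Of the neighbours in this order, Cfb (37.4 to 43.1 over libraries) and Cd55 (29.3 to 40.4) overlapped, and each other pair was apart. In the libraries labelled female the same quantity was 27.7 for Cd55, 14.1 for C3, 10.9 for Cd59a, 4.36 for Serping1, 3.29 for C1ra, 0.692 for Cfb and 0.0861 for C4b. No neighbours overlapped there. A membrane regulator stood first, and Cfb was in the sixth place rather than the third.

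Ratios of reads within a library do not depend on how libraries were scaled. Reads of Cfb were 20.6% to 25.7% of those of C3 in the libraries labelled male and 2.26% to 3.06% in those labelled female. C4b was at 22.4% to 25.9% of C1ra reads in the former and 3.35% to 6.03% in the latter, and at 3.75% to 4.54% and 0.420% to 0.857% of C3 reads. The 5 lower members thus did not differ by a common factor in these libraries. The ratio of Serping1 to its target differed least of the 6 ratios formed, with 127% to 137% of C1ra reads in the libraries labelled male and 76.3% to 82.8% in those labelled female. Cd55 moved the other way against C3, from 14.9% to 22.2% of C3 reads in the libraries labelled male to between 95.3% and 100% in those labelled female, and Cd59a from 4.01% to 4.71% up to between 25.4% and 29.4%. Each of these 6 ratios separated the groups. The two-sided exact permutation p was 0.1 for each, also after Benjamini-Hochberg adjustment over the 6, and 0.1 is the smallest that 3 against 3 can give.

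**Figure D2:**
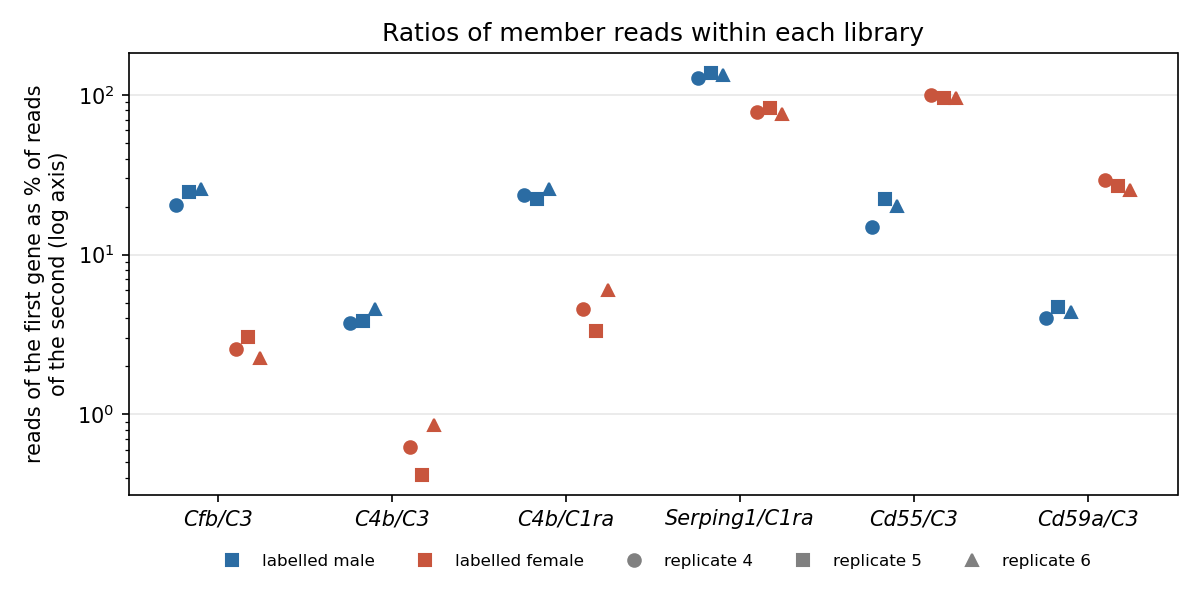
Reads of 1 member as a percent of the reads of another (log axis) in each library labelled male (blue) or female (red). Cfb/C3, C4b/C3, C4b/C1ra and Serping1/C1ra are lower in the libraries labelled female and Cd55/C3 and Cd59a/C3 higher, with no overlap.

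Around the members, a list of 58 complement genes covering the classical, lectin and alternative routes, the terminal components, regulators and receptors was examined. Of these, 34 were listed and 21 passed the filter, with 15 called lower, 4 called higher and 2 not called, beside 34.6% lower and 34.6% higher among all genes. Lower by at least 1 on the log2 scale were 11 of 21 (12.1% of all genes) and higher by at least 1 was 1 of 21 (8.51% of all genes). The median log2 fold change was -1.13 over the 21 genes, and -0.16 over all 34 listed genes when none was filtered out. It was -1.68 over the 21 with a pseudocount of 0.1, -1.07 over 24 with edgeR and -0.76 over all 34 with DESeq2. These counts include the 7 members, which belong to the list, and 2 genes, C4b and Fcna, that passed the filter through the libraries labelled male alone and could only be lower. The list, like the members, was chosen with earlier results of these data known.

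Beside 34.6% of all genes tested, and with C4b able only to be lower, all 4 tested genes of the classical route were called lower. Besides C1ra and C4b these were C1s1, at 34.7, 29.0 and 32.5 in male 4, 5 and 6 against 4.40, 6.54 and 5.51 in female 4, 5 and 6, and C2, the protease partner of C4, at 43.3, 55.1 and 62.8 against 4.36, 4.60 and 6.41. Their log2 fold changes were -2.36 (limma adjusted p 1.69e-06) and -3.16 (1.02e-06), and the groups were apart for each. C1s1 shares 21.9% of its 50-base words with C1s2. The recognition subunits C1qa, C1qb and C1qc, known as products of macrophages, held at most 2 reads in any library.

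The lectin list had 3 tested genes. Colec12, a scavenger receptor of the collectin family known from endothelium, was at 485 ± 37.5 against 74.5 ± 5.74 (SD, n = 3), and its log2 fold change was -2.69 (limma adjusted p 6.76e-08). Fcna, encoding ficolin A, passed the filter through the libraries labelled male alone, at 3.11, 3.32 and 3.71 in male 4, 5 and 6 and 1.20, 0.796 and 0.997 in female 4, 5 and 6. Masp1, encoding a lectin-route protease, had overlapping groups (38.2 to 43.9 and 36.4 to 38.6) and was not called (-0.11, limma adjusted p 0.239). Of the alternative route only C3 and Cfb were tested. Cfp, encoding properdin, was read below the filter at 0.812 to 0.871 and 0.840 to 1.19, and Cfd, encoding the factor D that cleaves factor B, held at most 1 read in any library. The 7 terminal components of the list were not analysed here.

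Among fluid-phase regulators, Clu, which encodes the terminal-complex inhibitor and chaperone clusterin, was at 1291, 1336 and 1379 in male 4, 5 and 6 and at 87.9, 79.2 and 89.8 in female 4, 5 and 6. Its groups were apart, with a log2 fold change of -3.95 (limma, SE 0.07, adjusted p 5.48e-09). C4bp, whose product binds C4 fragments, went the other way, from 1.70, 1.22 and 1.52 to 9.30, 7.03 and 6.13, a log2 fold change of 1.76 (limma adjusted p 2.01e-05).

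The membrane list had 4 tested genes. Cr1l, encoding Crry, was at 59.2, 58.9 and 57.1 in male 4, 5 and 6 and 45.7, 46.9 and 49.6 in female 4, 5 and 6. These did not overlap, and the log2 fold change was -0.30 (limma adjusted p 0.00305), close in size to that of Cd55 (-0.34). Thbd, encoding thrombomodulin, an endothelial anticoagulant that also promotes inactivation of C3 fragments, was called higher, at 534 ± 34.4 against 379 ± 16.1 (SD, n = 3) and a log2 fold change of 0.49 (limma adjusted p 0.000271).

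Of the receptors, Itgb2, the beta chain of the leukocyte complement-receptor integrins, was called lower (-1.88, limma adjusted p 1.36e-06), as was Cd93 (-0.63, limma adjusted p 0.000251). C3ar1, the receptor for the anaphylatoxin of C3, was called higher at 12.9 ± 0.457 against 9.29 ± 0.668 (SD, n = 3), and its log2 fold change was 0.44 (limma adjusted p 0.003), and C1qbp at 0.21 (limma adjusted p 0.0108). C5ar1, the receptor for the anaphylatoxin of C5, was below the filter and was not tested. It held 1, 0 and 1 reads in male 4, 5 and 6 and 9, 16 and 8 in female 4, 5 and 6, and the authors' deposited table gives it a false discovery rate of 0.00383.

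**Figure D3:**
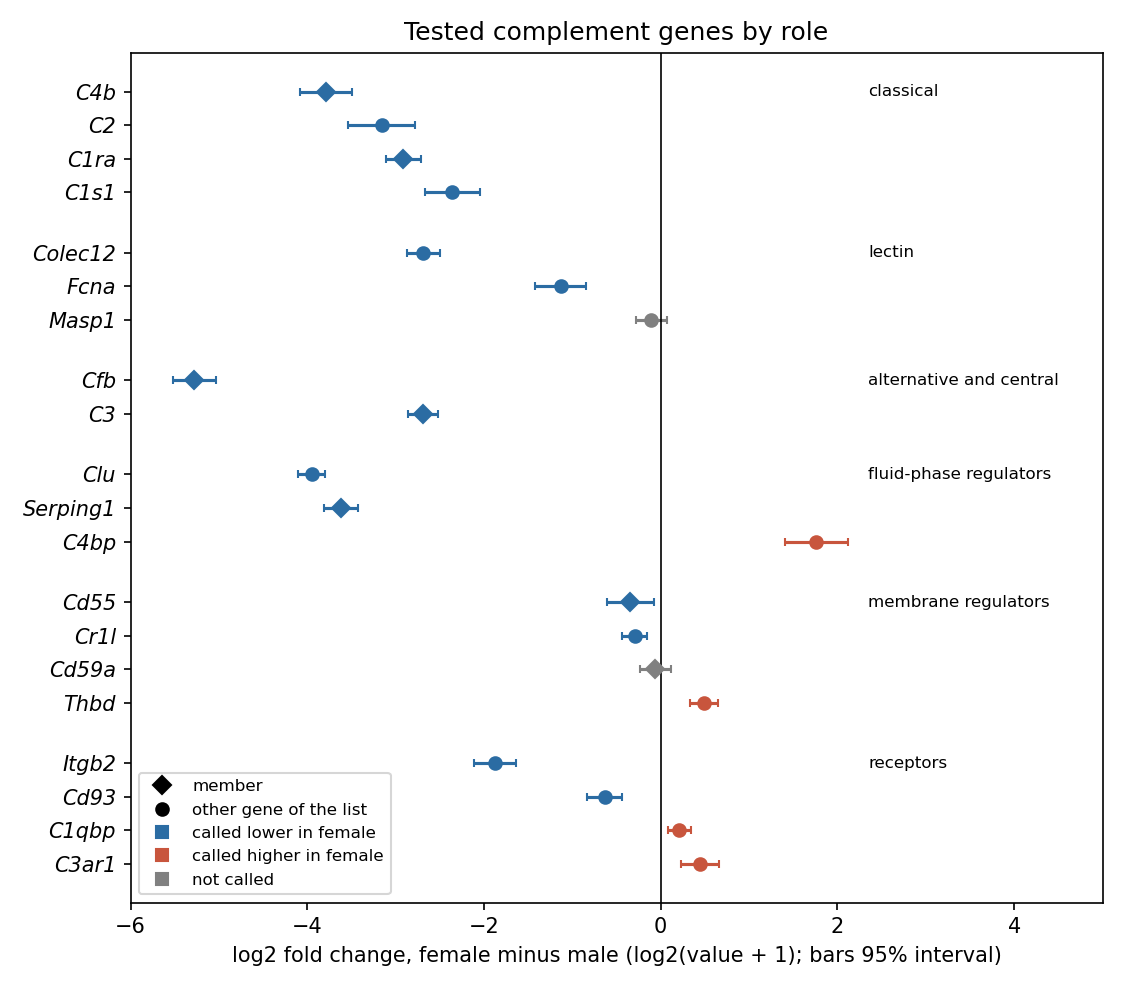
Log2 fold change, female minus male, of tested complement genes by role, with 95% limma intervals; diamonds are members and colours give the call. Classical, C3 and Cfb genes lie between -5.28 and -2.36, membrane regulators between -0.34 and 0.49.

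Markers of cell types moved with the labels. Endothelial markers were called lower for 8 of 10 and higher for 1, with a summed level of 2176 to 2271 in the libraries labelled male and 1158 to 1221 in those labelled female. Cdh5, Emcn and Eng, of which Eng was called higher, made much of that sum, and the median log2 fold change of the 10 was -2.23. Pecam1, the gene of CD31, was at 391 to 423 and 73.5 to 74.5, a difference of -2.44 on the log2 scale that left 18.2% of the mean in the libraries labelled male. For Tie1 that share was 9.94%, and for Vwf, which passed the filter through the libraries labelled male alone, 1.30%. Stellate and fibroblast markers were called lower for 7 of 8 tested and higher for 1, Des (6.97 to 9.11 and 12.5 to 16.9). Their sums were 1674 to 1947 and 741 to 785, made mostly by Col1a1 and Col1a2. Reln, below the filter, was higher without overlap (0.191 to 0.283 and 0.751 to 1.23). Lrat, a defining stellate marker, was not analysed here. Mesothelial markers were called higher for 6 of 7 and lower for 1, Krt19, which made most of the sum of 427 to 523 in the libraries labelled male (504 to 510.5 in those labelled female). Among them, Msln was at 17.1 to 20.6 and 299 to 358, Wt1 at 0.0829 to 0.114 and 11.7 to 13.6, and Upk3b had no read in the libraries labelled male. Of the 6 called higher, 4 (Upk3b, Upk1b, Wt1 and Gpm6a) passed the filter through the libraries labelled female alone, which fixed their direction. Likewise 2 endothelial markers (Erg and Vwf) and 1 stellate and fibroblast marker (Lum) passed through those labelled male alone. Of the 7 sinusoidal endothelial markers 2 were tested, Stab1 and Lyve1, each called lower. Lyve1 alone, at 470 to 513 and 4.37 to 5.48, made most of the sum over that list (490.0 to 529 and 7.65 to 9.11). Stab1 was at 14.2 to 18.5 and 1.61 to 2.21, and Clec4g and Fcgr2b held 3 reads or fewer in each library. Stab2, Oit3 and Mrc1 were below the filter too. Stab2, higher in mean with the female label (0 to 0.114 and 0.0950 to 0.415), and Oit3 (0.419 to 0.848 and 0.265 to 0.664) overlapped between the groups. Mrc1 was at 0.995 to 1.07 and 0.830 to 0.884. Among markers of hepatocytes, the main source of complement in liver, some were lower with the female label. Alb was at 0.572 to 0.600 in the libraries labelled male and 0 to 0.0830 in those labelled female, Fgb at 0.848 to 1.14 and 0 to 0.133, and Ahsg at 5.31 to 9.34 and 0 to 0.0442. Serpina1a (0.0706 to 0.153 and 0.0830 to 0.142) and Hnf4a (0.0706 to 0.114 and 0 to 0.208) overlapped between the groups, and Cyp3a11 and Serpina1b had no read in any library. Of the 11 hepatocyte markers 2 were tested and called lower, Trf and Ahsg, the latter having passed the filter through the libraries labelled male alone. Trf, at 82.2 to 98.8 and 50.01 to 59.6, made most of the list's sum of 89.7 to 110.2 and 50.5 to 59.8. Macrophage markers summed to 11.9 to 14.8 and 15.1 to 17.9, with 2 of 3 tested called higher and 1 lower, and Marco, Cd5l and Vsig4 at 3 reads or fewer in each library. Of the lymphocyte list, Ptprc was the 1 gene listed, with no read in the libraries labelled male and 0.142 to 0.332 in those labelled female. The part of these cell types in the differences of C1ra, C4b, C3, Cfb and Serping1 was not tested.

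The members lie on 4 chromosomes. C4b and Cfb are in one stretch of chromosome 17 with C2, the class III part of the major histocompatibility complex, C3 is elsewhere on chromosome 17, C1ra is beside C1s1 on chromosome 6, and Serping1 and Cd59a are on chromosome 2 and Cd55 on chromosome 1. Between C4b and Cfb stand 4 tested genes, Stk19, Dxo, Skiv2l and Nelfe, with log2 fold changes of -0.24, -0.38, -0.59 and -0.42. These are small beside the -3.79 and -5.28 of C4b and Cfb. On the far side of Cfb, C2 was at -3.16, Zbtb12 at -1.10, Ehmt2 at -0.34, Neu1 at -0.26 (not called) and 1110038B12Rik at -1.07. On the far side of C4b, Tnxb was at -1.34, Atf6b at -1.06, Fkbpl at -0.17 (not called), Prrt1 at -1.61 and Ppt2 at -0.54. Of the 10 neighbours of C4b, 4 were lower by at least 1, as were 4 of the 10 of Cfb, and each count includes the other of these 2 members. Around C1ra, C1s1 (-2.36), Ptpn6 (-1.69), the complement-protease relative C1rl (-1.67), Clec4d (-1.30), Necap1 (-0.66) and Lpcat3 (-0.56) were called lower, C3ar1 (0.44) and Phb2 (0.17) were called higher, and Pex5 (0.07) and Emg1 (-0.10) were not called. Over the 5 tested genes on each side of every member, 60 distinct genes lay outside the complement list. Of these, 31 were called lower and 15 higher, beside 34.6% lower and 34.6% higher among all genes tested. Lower by at least 1 on the log2 scale were 15 of 60, beside 12.1% of all genes tested. Their median log2 fold change was -0.34, and that of all tested genes was 0.01. By member, and with complement genes among the neighbours counted, the 10 neighbours split as follows, with no test between regions: 8 were called lower for C3, C4b and Cfb and 6 for C1ra, and Serping1 had 4 lower and 5 higher, Cd55 had 3 lower and 3 higher, and Cd59a had 1 lower and 6 higher. C4b and Cfb are each among the neighbours of the other and share the 4 genes between them.

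**Figure D4:**
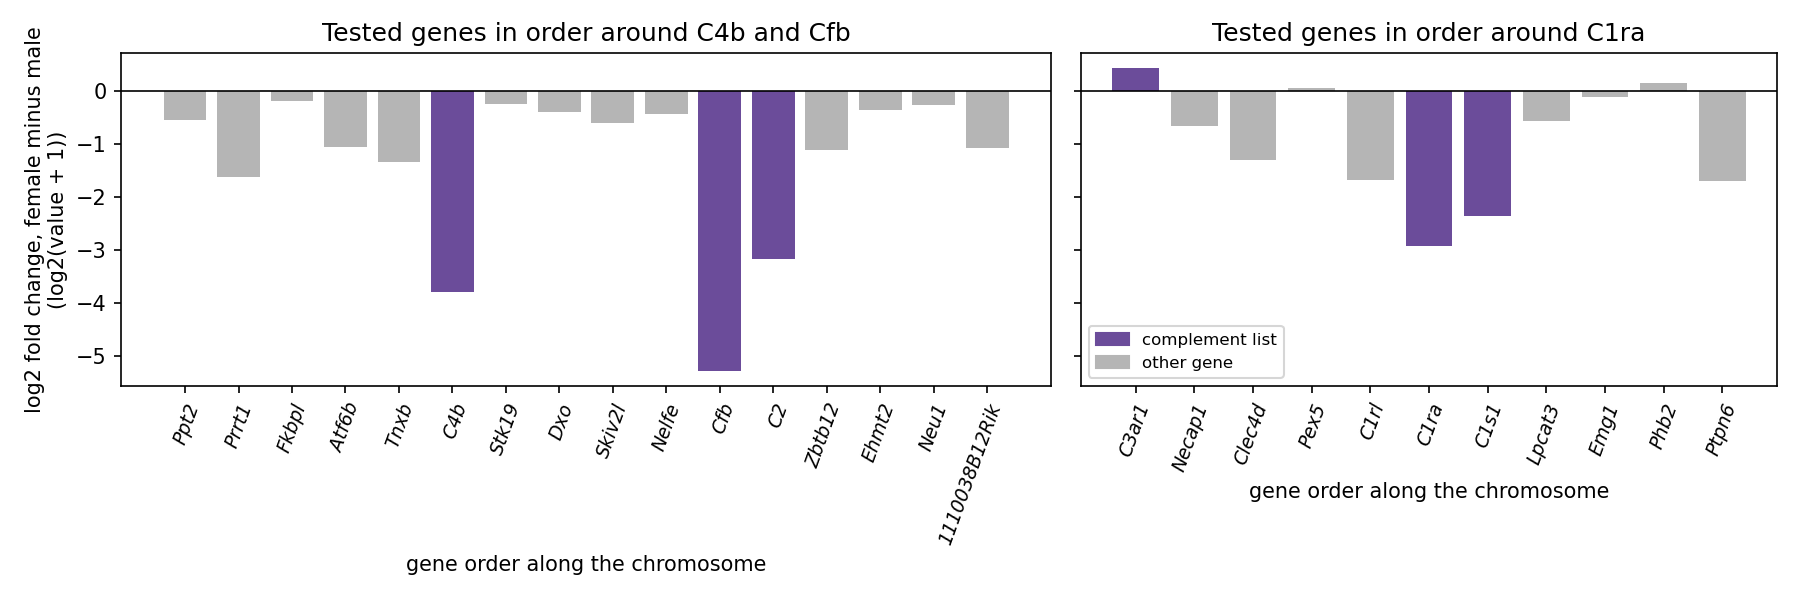
Log2 fold change, female minus male, of tested genes in chromosomal order around C4b and Cfb (left) and around C1ra (right). C4b, Cfb, C2, C1ra and C1s1 (purple) reach from -5.28 to -2.36, C3ar1 (purple) is at 0.44, and the genes outside the complement list stay between -1.69 and 0.17.

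In the authors' deposited table, 5 of the 7 members have a false discovery rate under 0.05. Its signed fold changes are -58.4 for Cfb, -40.9 for C4b, -13.7 for Serping1, -8.16 for C1ra and -6.54 for C3, with false discovery rates of 8.12e-07, 0.000335, 0.000142, 1.74e-05 and 0.00803. The authors' deposited table does not call Cd55 (-1.28, false discovery rate 0.523) or Cd59a (-1.05, 0.894), nor Cr1l, Thbd, C3ar1, Cd93 or C1qbp, which were called by limma.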

How the data were processed

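The deposited table holds 1 column per library and the authors' own comparison. Its signal columns are normalized read counts, deposited by the authors. Every value was a whole multiple of the column's smallest value above 0 (100%, tolerance 0.01 read), so dividing by that value gave back whole reads, from which edgeR called 8975 genes. A score column deposited by the authors gives signed fold changes, and 2 further columns give p-values and false discovery rates, per the file headers. The submitters' processing notes name Bowtie2, RSEM, edgeR and mm39. The role of each is not given in the sources used here, nor is the rule that made genes count as detectable.

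Members and gene lists were chosen with earlier results of these data known. limma 3.58.1 in R 4.3.3 (eBayes with trend) was fitted to log2(value + 1) over all 6 libraries, for the 12568 genes that reached 1 in 3 or more libraries. Adjustment was Benjamini-Hochberg over all of them, at 0.05. Called genes are named by list, not by size of change: the 8 members, the complement list, and for each member the 2 genes most like it. The scripts were tested on simulated data. Alternatives were RLE size factors, quantile normalization, 2 filters, a pseudocount of 0.1, a replicate block, edgeR 4.0.16, DESeq2 1.42.0, voom and each library left out. A required log2 fold change of 1 was added after seeing the data. The same replicate numbers showed no visible pairing of libraries. Shared sequence was measured as 50-base words in GENCODE M21 transcripts, whose build (GRCm38) differs from mm39. Of the 7 members read, 4 matched the promoter table. Of the complement list, 1 tested gene is counted but not reported here.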

Additional observations from a re-analysis of the deposited data

How the results depend on the processing

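The count of members called was 6 of 7 and lay between 5 and 6 under all 15 alternatives. It was 5 with at least 10 reads in every library, a filter that removes C4b by construction, and under quantile normalization and in 4 of the 6 fits that left out 1 library, where Cd55 was lost. Of 104 recomputed member values, 98 kept direction and call, 5 were Cd55 losing its call, and 1 was Cd59a, never called, at 0.0002 under quantile normalization. Leaving out each library in turn gave 7731 to 9496 genes called in all (highest without male 4), 18 to 19 of the complement list and log2 fold changes of -5.36 to -5.23 for Cfb, -3.88 to -3.71 for C4b and -2.75 to -2.63 for C3. The replicate block gave 8314 genes, 19 of the list and 6 members, and changed no call of a member. No pairing by replicate number was visible, as deviations of same-numbered libraries correlated at -0.09, -0.03 and -0.17 across genes. With 3 libraries per group this cannot exclude a shared preparation. Requiring a log2 fold change of at least 1, chosen after seeing the data, left 2589 genes, 12 of the complement list and 5 members by its own construction. Depth limits C4b in the libraries labelled female, at 7 to 14 reads, and the genes below the filter.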

Other observations

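For each member, the 2 tested genes outside the complement list whose log2 values followed it most closely over the 6 libraries were named by Pearson's r. With 2 groups this far apart, r mostly reflects the gap between the groups, and between 805 and 860 of 12547 genes exceeded 0.99 for each of the 5 strongly lower members, so the order among them carries little. The closest were Map2k6 and Clip3 for C3 (0.9998 and 0.9997), Itpk1 and Tapbp for C4b, Rtn4rl2 and Pygl for C1ra, Cnpy4 and Edem2 for Cfb, and Ssc5d and C1qtnf1 for Serping1. Their own log2 fold changes ran from -4.49 for Rtn4rl2 to -0.76 for Edem2. Rtn4rl2 is also among the 5 tested genes beside Serping1 on chromosome 2. For Cd55, where male 4 lies low, 8 genes exceeded 0.99, led by Fam64a (0.9996), and for Cd59a the highest was Lysmd3 (0.984).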
